A study of Homo sapiens with 6 samples.

Results

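The collagen chain genes were the rows of the RNA-seq table whose gene symbol reads COL, a number, A and a number, and 44 of the 26822 gene symbols in the table met this rule. COL11A2 had several rows, of which the row with the highest mean was kept. The cells were MCF10A, an established line of non-tumorigenic human breast epithelial cells kept in medium with horse serum, epidermal growth factor, hydrocortisone, cholera toxin and insulin. They were transfected with 30 nM of a non-targeting siRNA (siNT) or of siRNA against PAX9 (siPAX9), and RNA was taken after 72 hours from 3 samples of each group. The study asked how mRNA levels differ when PAX9, a paired-box transcription factor, is depleted. All samples are of 1 cell line, so the comparison speaks only for these cells. The study bought its siRNAs from Dharmacon and describes siPAX9 as a pool of siRNAs where it recounts its screen.

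The table gives 1 value per group for each locus, in FPKM (read fragments assigned to a transcript, divided by its length in kilobases and by the size of the library). The authors combined the samples of a group into this value, so no error between replicates is given here. Their own test values were not used and no p-value is given, so no difference below was checked against replicates here. The table holds no read counts, so the depth behind each value is unknown. FPKM is scaled to transcript length, which allows levels of different chains to be set side by side. PAX9 itself stood at 2.80 FPKM in siNT and 0.325 FPKM in siPAX9. Of the markers set for cell types, all 5 epithelial genes were above an FPKM of 1 in both groups, with a summed FPKM of 1705 (siNT) and 2014 (siPAX9), most of it from the keratin gene KRT5 (1558 and 1807). Of the epithelial genes, CDH1, which encodes E-cadherin, was at 45.3 and 124, and EPCAM at 34.3 and 16.7. Of 8 fibroblast or mesenchymal markers only VIM and DCN reached an FPKM of 1. VIM was at 301 in siNT and 53.5 in siPAX9 and DCN at 5.85 and 37.9, while DPT was listed at 0 in both groups and PDGFRA, PDGFRB, THY1, LUM and TCF21 were all below 0.1. The summed FPKM of the 8 markers was 307 in siNT and 91.6 in siPAX9. Of 3 endothelial markers PECAM1 passed this minimum (2.58 for siNT, 0.495 for siPAX9), with a summed FPKM of 2.58 and 0.516, and of 3 immune markers CD68 did (3.38 and 3.77), with a sum of 3.40 and 3.86, while CDH5, VWF, PTPRC and CD3E were below 0.1 in both groups. The part of these markers in the collagen values was not tested.

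Collagens are extracellular or transmembrane proteins whose chains wind around each other into a triple helix. Fibrillar collagens such as type I make up the fibres of connective tissue, and type IV collagen forms the network of the basement membrane on which epithelial cells sit. Type VII collagen builds anchoring fibrils beneath that membrane, and type XVII collagen is a transmembrane protein of the hemidesmosome, which ties basal epithelial cells to it. Some collagen molecules combine chains of different genes. The products of COL4A1 and COL4A2 form a type IV molecule, those of COL4A5 and COL4A6 another, and those of COL1A1 and COL1A2 form type I.

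The genes of type IV chains lie head to head in pairs that are transcribed away from each other from a short shared stretch. That stretch is shown for COL4A1 and COL4A2, whose levels were both lower in siPAX9, and beside it the bases before the start of COL4A5, whose level was higher while that of its neighbour COL4A6 was lower. The bases before COL7A1 and COL28A1 are shown because both genes were at least 2-fold higher. The sequences are those of RefSeq on GRCh38.p14, read 5′ to 3′ on the strand named, and end at the base before the start of the gene. The stretch between COL4A1 and COL4A2 is chr13:110307158-110307283 on the plus strand, which is that of COL4A2. The window of COL4A5 is chrX:108439588-108439837 on the plus strand, that of COL7A1 is chr3:48595330-48595579 on the minus strand, and that of COL28A1 is chr7:7535874-7536123 on the minus strand. Capitals mark matches on either strand to the GC box GGGCGG, the CCAAT box CCAAT and the TATA box TATAAA.
COL4A1-COL4A2: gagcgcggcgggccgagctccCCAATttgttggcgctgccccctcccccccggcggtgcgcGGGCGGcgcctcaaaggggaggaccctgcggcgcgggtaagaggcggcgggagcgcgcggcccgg
COL4A5: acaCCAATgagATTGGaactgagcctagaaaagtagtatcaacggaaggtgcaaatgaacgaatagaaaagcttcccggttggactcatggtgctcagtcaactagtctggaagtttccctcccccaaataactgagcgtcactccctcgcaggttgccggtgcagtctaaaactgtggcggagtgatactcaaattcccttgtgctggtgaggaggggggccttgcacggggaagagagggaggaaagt
COL7A1: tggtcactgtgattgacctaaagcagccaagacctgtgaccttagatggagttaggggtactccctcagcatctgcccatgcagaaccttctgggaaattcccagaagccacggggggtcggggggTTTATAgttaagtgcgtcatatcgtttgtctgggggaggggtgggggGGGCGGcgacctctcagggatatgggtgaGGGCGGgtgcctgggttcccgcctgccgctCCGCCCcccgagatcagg
COL28A1: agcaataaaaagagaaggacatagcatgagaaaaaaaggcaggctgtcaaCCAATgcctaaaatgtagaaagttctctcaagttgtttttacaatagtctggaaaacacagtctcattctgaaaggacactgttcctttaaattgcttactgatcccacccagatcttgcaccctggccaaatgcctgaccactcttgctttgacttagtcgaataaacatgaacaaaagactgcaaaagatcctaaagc

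The stretch between COL4A1 and COL4A2 was 126 bases long, 80.2% of them G or C, and held 1 GC box, 1 CCAAT box and 0 matches to the TATA box. The 126 bases before the start held a GC box in 34.6% and a CCAAT box in 21.1% of the 35116 RefSeq windows. Their median share of G or C was 60.3%. The 250 bases before COL4A5 were 51.2% G or C, with 2 CCAAT boxes and 0 GC boxes. Those before COL7A1 held 3 GC boxes and 1 match to the TATA box, which reads on the strand opposite to the gene. Those before COL28A1, 39.6% G or C, held 1 CCAAT box. Of all 35116 windows of 250 bases, 42.6% held a GC box, 32.0% a CCAAT box and 10.7% a TATA box, and their median share of G or C was 58%. The table of windows matched 32 of the 44 collagen genes, with 44 windows, of which 24 (54.5%) held a GC box, 12 (27.3%) a CCAAT box and 8 (18.2%) a TATA box. In the sequences printed, no matches overlap, and a match describes the window and not a bound site. COL1A1 had no entry.

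Of the 44 collagen genes, 13 reached an FPKM of 1 in at least 1 group, and all 13 were above 0 in both. The other 31 stayed below 1. Of the 13, 2 were at least 2-fold lower in siPAX9 (COL4A1 and COL4A2) and 3 were at least 2-fold higher (COL7A1, COL1A1 and COL28A1). Of all 13492 named genes that met the same FPKM minimum, 6.89% were at least 2-fold lower and 7.26% at least 2-fold higher. COL1A1 and COL28A1 met the minimum only through siPAX9, so they had to be higher there, and the counts are given as a description. Another 5 collagen genes were lower and 3 were higher by less than 2-fold. The median log2 ratio of siPAX9 over siNT was -0.14 for the 13 genes and -0.07 for all 13492. The ratios below are of the values as deposited, and centring them on the median of all genes moved none of the 13 across the 2-fold threshold.

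**Figure D1:**
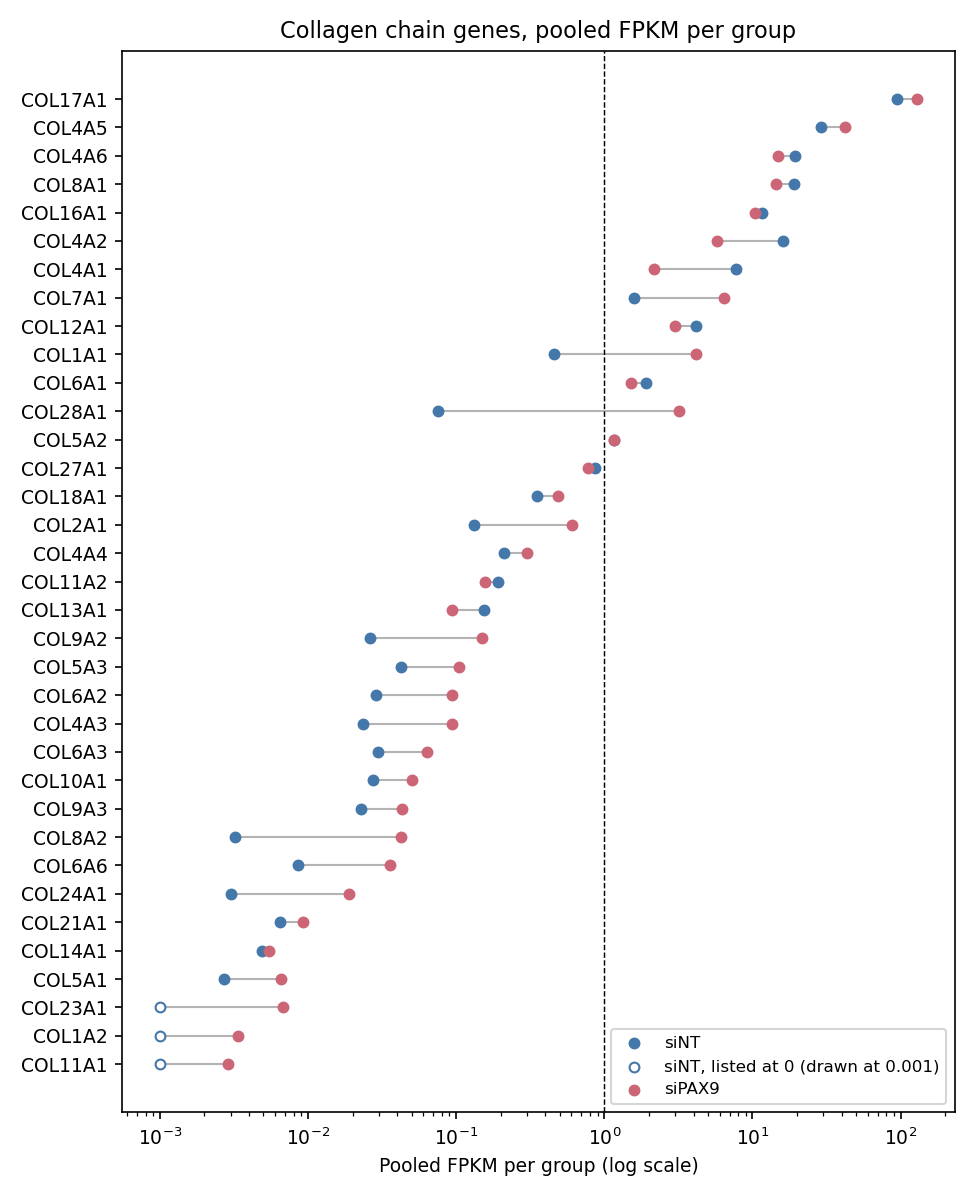
Pooled FPKM of each collagen chain gene (log axis) in siNT (blue) and siPAX9 (red), for the 35 genes above 0 in at least 1 group, ordered by mean level, with 3 genes listed at 0 in siNT as open circles at 0.001. Of the genes right of the dashed line at an FPKM of 1, COL4A1 and COL4A2 have the siPAX9 point well to the left of the siNT point, and COL7A1, COL1A1 and COL28A1 well to the right.

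The most abundant collagen mRNA in both groups was COL17A1 (chr10:105791046-105845638 on hg19), the transmembrane collagen of hemidesmosomes. Its FPKM was 95.1 in siNT and 129 in siPAX9, a ratio of 1.35 (0.44 on the log2 scale). COL17A1 made up 45.4% of the summed FPKM of all 44 genes in siNT and 53.3% in siPAX9. The sum itself was 209 in siNT and 241 in siPAX9. The row of COL17A1 also carries MIR936, a miRNA gene, so the value belongs to both symbols. Without the 3 rows that carry 2 symbols each, which hold COL17A1, COL7A1 and COL3A1, the log2 ratio of the sum was -0.082 in place of 0.21.

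The partners of type XVII collagen at the hemidesmosome were high in both groups, and 0 of the 9 genes of this list were at least 2-fold lower or higher. LAMA3, a chain of laminin-332, stood at 76.9 FPKM in siNT and 91.3 FPKM in siPAX9. ITGB4, the integrin subunit specific to hemidesmosomes, had 147 in siNT and 128 in siPAX9. The list had a median log2 ratio of 0.18.

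COL7A1 (chr3:48601502-48632593 on hg19) encodes the chain of anchoring fibrils, which is its own only partner. Its FPKM was 1.59 in siNT and 6.37 in siPAX9, a ratio of 4.01 (2.00 on the log2 scale, or 1.51 with 1 added to both values). It ranked 355 among the increases of all 13492 genes. The row also carries MIR711.

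Of the 6 type IV chains, 4 reached an FPKM of 1, and they differed in both directions. COL4A1 (chr13:110801305-110959504 on hg19) stood at 7.73 FPKM in siNT and 2.16 FPKM in siPAX9, which is 3.58-fold lower (-1.84 on the log2 scale, -1.47 with 1 added). Its neighbour COL4A2 (chr13:110959614-111165556) had 16.1 in siNT and 5.74 in siPAX9, which is 2.80-fold lower (-1.49, or -1.34 with 1 added). The decreases ranked 218 and 401 among all 13492 genes. Both chains of the most widespread type IV molecule were thus lower in siPAX9, and COL4A2 stayed the higher of the pair, with 2.08 times the FPKM of COL4A1 in siNT and 2.66 times in siPAX9. COL4A2-AS1 and COL4A2-AS2, antisense genes within COL4A2, had FPKM of at most 0.128 in either group. Whether reads were assigned by strand is not given in the sources used here, so reads of COL4A2 and of its antisense genes cannot be told apart.

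COL4A5 (chrX:107683074-107940778 on hg19) was the most abundant type IV chain, with 29.0 in siNT and 42.4 in siPAX9, a ratio of 1.46 (0.55 on the log2 scale). COL4A6 (chrX:107398837-107682727) had 19.3 in siNT and 14.9 in siPAX9, a ratio of 0.774 (-0.37). The 2 genes of this pair differed in opposite directions, both by less than 2-fold, and the ratio of COL4A5 to COL4A6 was 1.502 in siNT and 2.84 in siPAX9. The starts of COL4A5 and the nearer of the 2 starts of COL4A6 lie 379 bases apart in RefSeq.

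COL4A3 and COL4A4, the chains best known from the kidney glomerulus, were low. COL4A3 stood at 0.0236 FPKM in siNT and 0.0932 FPKM in siPAX9, and COL4A4 had 0.211 and 0.299. The summed FPKM of the 6 chains was 72.3 in siNT and 65.7 in siPAX9. Within that sum, COL4A1 and COL4A2 together held 32.9% in siNT and 12.0% in siPAX9, and COL4A5 and COL4A6 held 66.7% and 87.4%. The sum of type IV mRNA was thus 0.908 times that of siNT, while COL4A1 and COL4A2 made up a smaller share of it in siPAX9.

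**Figure D2:**
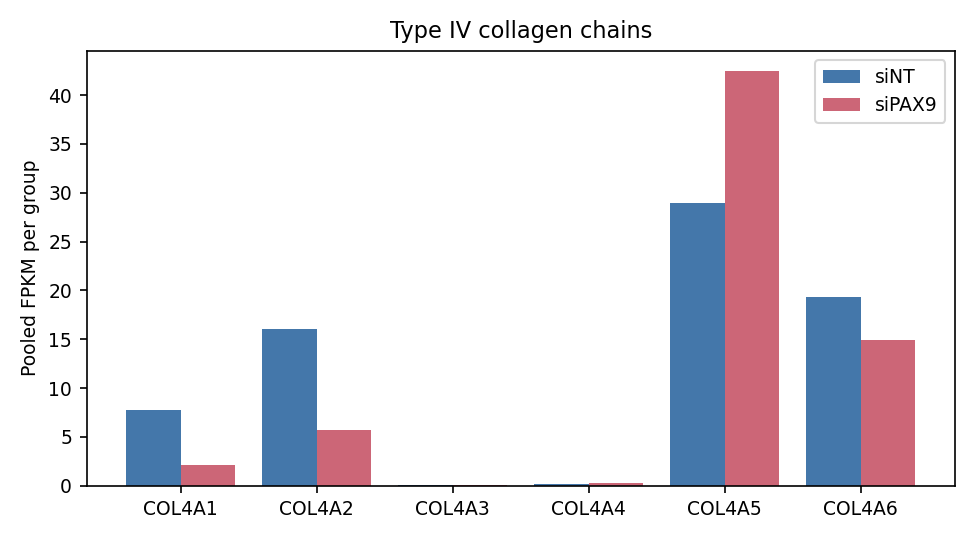
Pooled FPKM of the 6 type IV collagen chain genes in siNT (blue bars) and siPAX9 (red bars), 1 value per group and no error bar. The bars of COL4A1 and COL4A2 are lower in siPAX9 (2.16 and 5.74 against 7.73 and 16.1), and that of COL4A5 is higher (42.4 against 29.0).

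By structural class, the summed FPKM was 95.2 in siNT and 129 in siPAX9 for the 4 transmembrane collagens, 19.1 and 14.6 for the 3 of hexagonal networks, 15.8 and 13.7 for the 10 FACIT collagens, and 1.97 and 1.71 for the 5 of beaded filaments. Each of these sums came mainly from 1 or 2 genes.

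Fibrillar collagen mRNA was scarce in both groups, with a summed FPKM of 2.85 (siNT) and 6.97 (siPAX9) over 11 genes. COL1A1 (chr17:48261457-48279000 on hg19), the main chain of type I collagen, stood at 0.454 FPKM in siNT and 4.13 FPKM in siPAX9, a ratio of 9.09 (3.18 on the log2 scale, 1.82 with 1 added). It ranked 161 among the increases. COL1A2, which encodes the other chain of type I, was listed at 0 in siNT and had an FPKM of 0.00337 in siPAX9, so the level of COL1A1 in siPAX9 was not matched by its partner. COL5A2 had 1.15 in siNT and 1.17 in siPAX9, while COL5A1, its partner in type V collagen, had 0.00270 and 0.00661. COL3A1, the chain of type III collagen, was listed at 0 in both groups. COL27A1, a fibrillar chain of cartilage, had 0.869 and 0.775, and COL2A1, the main collagen of cartilage, had 0.132 and 0.603.

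COL28A1 (chr7:7396898-7575460 on hg19) encodes a collagen with von Willebrand factor A domains. It had the largest ratio of the 13 genes, with an FPKM of 0.0749 (siNT) and 3.21 (siPAX9). The log2 ratio was 5.42, or 1.97 with 1 added to both values, and it ranked 46 among the increases of all 13492 genes. The size of this ratio rests on a siNT value close to 0, and with 1 added the ratios of COL28A1, COL1A1 and COL7A1 came to lie between 1.51 and 1.97 on the log2 scale.

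The remaining collagen genes above an FPKM of 1 differed by less than 2-fold. COL8A1 (chr3:99273153-99897476 on hg19), a short-chain collagen of hexagonal networks, had 19.1 in siNT and 14.5 in siPAX9 (-0.40 on the log2 scale). Its locus in the table also spans CMSS1, which had 22.6 in siNT and 15.2 in siPAX9 (-0.57) in a row of its own. COL16A1 and COL12A1 belong to the FACIT collagens, which sit on the surface of fibrils or near basement membranes. COL16A1 had 11.6 and 10.5 (-0.14), and COL12A1 had 4.17 and 2.99 (-0.48). COL6A1 had 1.90 and 1.52 (-0.33), while its partners in type VI collagen were lower by far, with 0.0288 and 0.0944 for COL6A2 and 0.0297 and 0.0637 for COL6A3.

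**Figure D3:**
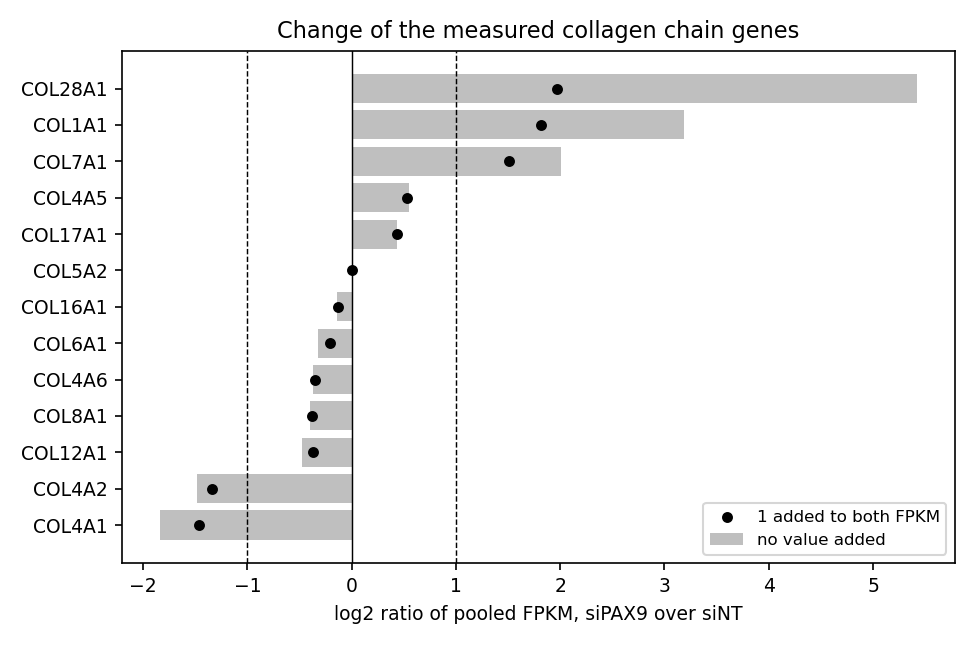
log2 ratio of pooled FPKM in siPAX9 over siNT for the 13 collagen chain genes with an FPKM of at least 1 in either group (grey bars), and the same with 1 added to both values (black points), with dashed lines at a 2-fold difference. COL4A1 and COL4A2 lie beyond the line on the left and COL7A1, COL1A1 and COL28A1 beyond that on the right, with and without 1 added.

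Of the 31 genes below an FPKM of 1 in both groups, 9 were listed at 0 in both: COL3A1, COL6A5, COL9A1, COL15A1, COL19A1, COL20A1, COL22A1, COL25A1 and COL26A1. COL1A2, COL11A1 and COL23A1 were listed at 0 in siNT and had at most 0.00679 in siPAX9. The highest of the other 19 were COL27A1, COL2A1 and COL18A1. COL18A1, the multiplexin of basement membranes from which endostatin is cleaved, had 0.352 in siNT and 0.485 in siPAX9. The authors' software marked COL27A1 and COL2A1 as having enough reads to be tested, and the other 29 as not. COL13A1, a transmembrane collagen like COL17A1, had 0.154 and 0.0932.

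Genes that act on collagen chains, bind them or lie beside them were taken from 9 lists, which hold 95 genes, and 67 of these met the FPKM minimum. Of the 67, 11 (16.4%) were at least 2-fold lower in siPAX9 and 5 (7.46%) at least 2-fold higher, beside 6.89% and 7.26% of all genes. The lists were chosen with earlier results of these data known, so these shares are a description. The 11 include ITGA10, whose value is uncertain. PCOLCE2 among the lower and FN1 and POSTN among the higher met the minimum through a single group, so they had to differ. The medians of the lists below stand beside the -0.07 of all genes.

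Of 11 enzymes and partners of proline and lysine modification, 1 was at least 2-fold lower and 0 were at least 2-fold higher, with a median log2 ratio of -0.42. P4HB, a subunit of prolyl 4-hydroxylase, stood at 179 FPKM in siNT and 122 FPKM in siPAX9. P4HA1, its catalytic partner, had 19.8 and 14.8. PLOD2, a lysyl hydroxylase, had 47.6 and 39.1. CRTAP, of the prolyl 3-hydroxylation complex, was the gene past 2-fold, with 62.8 in siNT and 21.8 in siPAX9 (-1.52 on the log2 scale). In the list of folding and export, 2 of 12 genes were at least 2-fold lower and 0 were at least 2-fold higher, with a median of -0.50. SERPINH1, which encodes the collagen chaperone HSP47, had 72.9 in siNT and 29.1 in siPAX9 (-1.33). FKBP10, a prolyl isomerase of the endoplasmic reticulum, had 39.6 and 15.8 (-1.33).

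Of the 4 cross-linking genes that met the minimum, 2 were at least 2-fold lower and 0 were at least 2-fold higher, with a median log2 ratio of -0.75. LOX, lysyl oxidase, which cross-links fibrillar collagen, stood at 39.9 FPKM in siNT and 13.6 FPKM in siPAX9 (-1.55 on the log2 scale). PXDN, peroxidasin, which cross-links type IV collagen, had 37.6 and 16.6 (-1.18). Among 5 genes of propeptide processing, PCOLCE2, an enhancer of procollagen cleavage, had 1.68 and 0.299 (-2.48), and it met the minimum only through siNT. The other genes of this list differed by less than 2-fold, and its median was -0.15.

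Matrix proteins that associate with fibrils differed in both directions. FN1, fibronectin, stood at 0.588 FPKM in siNT and 25.2 FPKM in siPAX9 (5.42 on the log2 scale, 4.05 with 1 added). DCN, decorin, a proteoglycan that binds type I collagen, had 5.85 and 37.9 (2.70). POSTN, periostin, had 0.0407 and 1.41 (5.11, or 1.21 with 1 added). SPARC, a collagen-binding glycoprotein of basement membranes, was lower, with 8.73 and 1.32 (-2.73). In this list, 3 of the 5 genes that met the minimum were thus at least 2-fold higher and 1 at least 2-fold lower, with a median of 2.70. FN1 and POSTN met the minimum only through siPAX9, and DCN is also one of the fibroblast or mesenchymal markers above.

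Of 6 collagen receptor genes, 2 were at least 2-fold lower and 0 at least 2-fold higher, with a median log2 ratio of -0.42. MRC2, an endocytic receptor that takes up collagen, had 4.96 in siNT and 1.22 in siPAX9 (-2.02 on the log2 scale). ITGA10, an integrin subunit of collagen receptors, had 10.8 and 1.15 (-3.23), at a locus that the table places at chr1:144146811-146467744 and that is much wider than the gene, so its value is uncertain. ITGA2 had 19.4 and 15.2, and DDR1, a receptor tyrosine kinase for collagen, had 57.9 and 41.4.

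Of 7 partners in the basement membrane, 1 was at least 2-fold lower and 0 were at least 2-fold higher, while the median log2 ratio of the list was 0.42. FRAS1 had 2.80 in siNT and 1.31 in siPAX9 (-1.09 on the log2 scale), or -0.71 with 1 added. Of 8 genes of TGF-beta ligands and readouts, LTBP1, which holds latent TGF-beta in the matrix, was lower, with 39.5 and 16.0 (-1.30), and the median of the list was 0.22. CCN2 had 1.54 and 3.72 (1.27) and SKIL had 4.38 and 9.10 (1.06), which became 0.89 and 0.91 with 1 added.

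**Figure D4:**
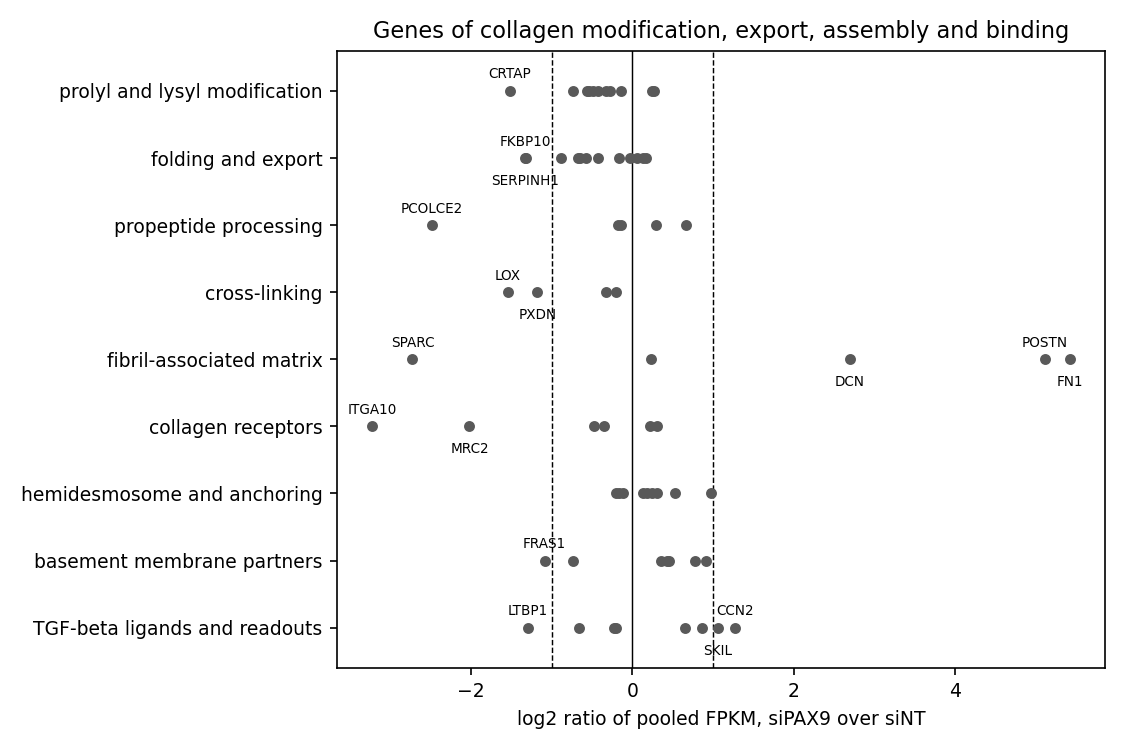
log2 ratio of pooled FPKM in siPAX9 over siNT for 67 genes of 9 lists around collagen (1 point per gene and list), with dashed lines at a 2-fold difference and names for genes at or beyond it. SERPINH1, FKBP10, CRTAP, LOX and PXDN lie left of the lower line, and FN1, POSTN and DCN lie right of the upper line.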

How the data were processed

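The RNA-seq table was analysed as deposited. Per the labels and the methods, poly(A)+ RNA was sequenced as single-end reads on a HiSeq instrument, aligned to hg19 with Bowtie 2 and quantified with Cufflinks within Partek Flow. The authors gave each of 41656 loci 1 FPKM for siNT and 1 for siPAX9, pooled over 3 samples per group, and how libraries were scaled to each other is not given in the sources used here. Pooling hides the spread between samples, so no test could be run. The table also holds the authors' own comparison (a fold change, a test statistic, a p-value and a q-value per locus), which was not used. The status word of each locus, OK, NOTEST or FAIL, was used as a filter in an alternative.

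Rows were split at commas into symbols, and the row with the highest mean FPKM was kept for each symbol. A gene was measured where its FPKM was at least 1 in the higher group and above 0 in both. Another 130 named genes reached 1 in a group and were listed at 0 in the other, and have no ratio. A gene was called lower or higher at a fold of at least 2, without a pseudocount. The step was run on simulated data with changes set beyond this fold, which checks the code and not the noise of real values. Starts in the table were raised by 1 base. After this, 4873 of 21282 starts of loci equalled those of the GENCODE annotation of GRCh37, against 515 before.

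All collagen genes with an FPKM of at least 1 are named, as are all genes of the lists beyond 2-fold. Genes of the lists that were named whatever their values are SERPINH1, P4HA1, P4HB, PLOD2, LOX, ITGA2, DDR1, LAMA3 and ITGB4. Collagen genes below an FPKM of 1, other than type IV chains and the highest, were named after their values were seen. The members and lists were chosen with earlier results of these data known. Alternatives changed the FPKM minimum, the value added, the centring, the fold and the loci used. RefSeq windows on GRCh38.p14 were used for sequence only, and no coordinates were converted. Python 3.11.15, numpy 2.4.6, pandas 2.3.3 and matplotlib 3.10.9 were used.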

Additional observations from a re-analysis of the deposited data

How the results depend on the processing

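No paired analysis was possible because the table holds 1 pooled value per group, and for the same reason no sample could be left out. The count of collagen genes at least 2-fold higher, 3 of 13 as reported, was 6 of 21 with an FPKM minimum of 0.1, 13 of 32 without a minimum and 1 of 8 with a minimum of 5. The share of all genes at least 2-fold higher moved too, from 7.26% to 11.9%, 13.7% and 4.85%. The count of collagen genes at least 2-fold lower, 2 as reported, was 0 at a fold of 4, which 1.37% of all genes passed. The median log2 ratio of the collagen genes, -0.14 as reported, was 0.015 with a minimum of 0.1 and 0.54 without one, positive under both. It was -0.26 with a minimum of 5, -0.13 with 1 added, -0.076 after centring and -0.33 over loci with a single symbol. The log2 ratio of the summed FPKM was 0.20 over loci of status OK and -0.082 over loci with a single symbol. Over loci of status OK it was 1.35 for fibrillar, -0.40 for hexagonal network, -0.22 for FACIT and -0.33 for beaded filament genes. Of the genes in the 9 lists, 11 lower and 5 higher of 67 as reported, 17 were lower and 11 higher at a fold of 1.5, and 4 and 3 at a fold of 4. Of all genes, 16.8% were lower and 14.3% higher at a fold of 1.5, and 1.37% and 2.67% at a fold of 4. With a minimum of 0.1, 14 of 82 list genes were lower and 10 higher, without one 15 and 13 of 90, and with a minimum of 5, 8 and 3 of 58. With 1 added, 10 and 3 of 67 were lower and higher, beside 4.54% and 4.48% of all genes. The share of all genes lower was 7.59%, 8.15% and 6.10% under those minimums. A minimum on the mean of both groups, chosen after seeing the data, gave 2 collagen genes lower and 3 higher, as reported, and 10 lower and 4 higher of 65 in the lists, beside 6.57% lower and 6.37% higher of all genes. It left 0 genes lower in propeptide processing, in place of 1, and 2 genes higher in fibril-associated matrix, in place of 3. The log2 ratio of each of the 13 genes kept its side of the 2-fold threshold with 0.1 or 1 added and after centring. A lower minimum brings in more genes, and the cause of the other differences was not tested.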

Other observations

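Among the 19 collagen genes below an FPKM of 1 in both groups and above 0 in both, 16 were higher in siPAX9 and 3 were lower (COL27A1, COL11A2 and COL13A1). Of the 16, 10 were at least 2-fold higher, and 0 of the 19 were at least 2-fold lower. Their median log2 ratio was 1.10. Of all 4970 named genes in the same range, 64.7% were higher in siPAX9, 31.3% were at least 2-fold higher and 11.5% at least 2-fold lower, with a median log2 ratio of 0.38. Without reads per sample, the counting error of these low values is unknown. COL8A2, a short-chain collagen, went from 0.00323 to 0.0423, COL9A2, a FACIT chain of cartilage, from 0.0260 to 0.148, and COL24A1, a fibrillar chain, from 0.00304 to 0.0189.

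COL4A3 and COL4A4, the third pair of type IV genes that lie head to head, had loci 5 bases apart in the table. The FPKM of COL4A4 was 8.98 times that of COL4A3 in siNT and 3.21 times in siPAX9, at levels below 0.3 in both groups. The locus of COL4A3 in the table also overlaps MFF, which had 34.8 in siNT and 17.3 in siPAX9 in a row of its own.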
